A study of Mus musculus with 6 samples.

Results

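The matrix metalloproteinases (MMPs), their tissue inhibitors (TIMPs) and the ADAMTS proteases with the related ADAMTS-like proteins were followed through bulk RNA-seq of damaged hepatocytes (dHeps). The genes were taken by symbol alone, as every gene named as an MMP, as TIMP 1 to 4, or as an ADAMTS or ADAMTS-like gene, without use of their values. This gave 51 of the 52323 genes in the count table, namely 23 MMP, 4 TIMP, 19 ADAMTS and 5 ADAMTS-like genes. The cells came from livers of mice injured with carbon tetrachloride (CCl4), a hepatotoxin used to induce chronic liver injury. The mice carried a tdTomato reporter behind a stop cassette (AAV-TBG-Cre:Rosa-LSL-tdTomato), which Cre from a viral vector under the thyroxine-binding globulin promoter opens in hepatocytes. The reporter marks hepatocyte descent. The study describes the isolation as strongly enriched for reporter-positive cells, but no sort for the reporter is stated for these cultures, so other liver cells could be present. All 6 libraries came from cells kept for 16 days in serum-free Hepatocyte Maintenance Medium. Control cells received the solvent, DMSO. In 3C, cells received 50 µM of CID755673, which inhibits protein kinase D, with 2 µM of GSK429286A and 5 µM of ETC-1002, which blocks ATP citrate lyase. In 5C, these 3 compounds were given at the same doses together with salidroside, a glucoside from plants, at 5 µM, and forskolin, which activates adenylyl cyclase, at 2 µM. Each group had 2 libraries. The labels gave no age for the animals and did not say what separates the 2 libraries of a group. The study describes its replicates in general as biologically separate, without saying whether these libraries differ by animal or by culture, and p-values measure the spread between them.

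MMPs are zinc-dependent proteases that cut collagens, elastin, proteoglycans and many cell surface and signalling proteins. They are made as inactive proenzymes, and TIMPs block the active enzymes by binding their catalytic site. ADAMTS proteases are secreted relatives with thrombospondin repeats, of which some cut proteoglycans and others trim procollagens, whereas the ADAMTS-like proteins share the thrombospondin repeats but lack the protease domain. In the liver, these genes are best known from the deposition and breakdown of scar matrix, where stellate cells, macrophages and injured epithelium contribute different members. RNA levels do not measure the activity of any of these enzymes.

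The libraries held 65916573 to 69245895 counts, of which the 51 genes took 0.342% to 0.450%. Of the 51 genes, 41 had enough counts to be tested among 19135 genes, and 10 had not. Values per library are given as CPM (counts per 1000000 counts of the library), and levels are compared between genes only as the deposited FPKM, which are scaled for gene length. Among 9 hepatocyte markers found in the table, the summed level ran from 2032 to 2426 CPM in DMSO, from 10921 to 11357 CPM in 3C and from 10701 to 15575 CPM in 5C, with none at 0. The 10 macrophage markers summed to 9810 to 10344 CPM in DMSO, 3296 to 3307 CPM in 3C and 2112 to 2137 CPM in 5C. The labelled cell type was therefore present by its markers in every library, and macrophage transcripts were abundant as well, most of all in DMSO. Fewer cells of a type and less RNA per cell cannot be told apart in such bulk samples, and this applies to every result that follows.

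A gene was called when its adjusted p was under 0.05 and its absolute log2 fold change above 1. Against DMSO, 5C changed 19 of the 41 tested genes, 13 of them higher and 6 lower, beside 11.7% called among all genes tested, 7.3% higher and 4.42% lower. Against the same DMSO libraries, 3C changed 14 of the 41, with 5 higher and 9 lower, beside 9.45% of all genes, 5.83% higher and 3.62% lower. Between 5C and 3C, 5 of the 41 differed, 4 higher in 5C and 1 lower, beside 3.01% of all genes, 2.16% higher and 0.852% lower. The median log2 fold change of the 41 genes was 0.16 for 5C against DMSO, -0.07 for 3C against DMSO and 0.26 for 5C against 3C, beside medians over all genes of 0.00, 0.01 and -0.01. Without the fold limit, 26 of the 41 passed the adjusted p in 5C against DMSO, beside 28.7% of all genes, and 18 of the 41 in 3C against DMSO, beside 24.5%. The genes thus moved in both directions. Among 18 tested MMPs, 5C had 4 higher and 5 lower and 3C had 2 higher and 6 lower. Among 14 tested ADAMTS genes, 5C had 6 higher and none lower, and 3C had 2 higher and 1 lower. Of the 4 TIMPs, 5C had 2 higher and none lower, and 3C had 1 higher and 1 lower. Of the 5 ADAMTS-like genes, 5C had 1 higher and 1 lower, and 3C had none higher and 1 lower. Whether the families differed was not tested.

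**Figure D1:**
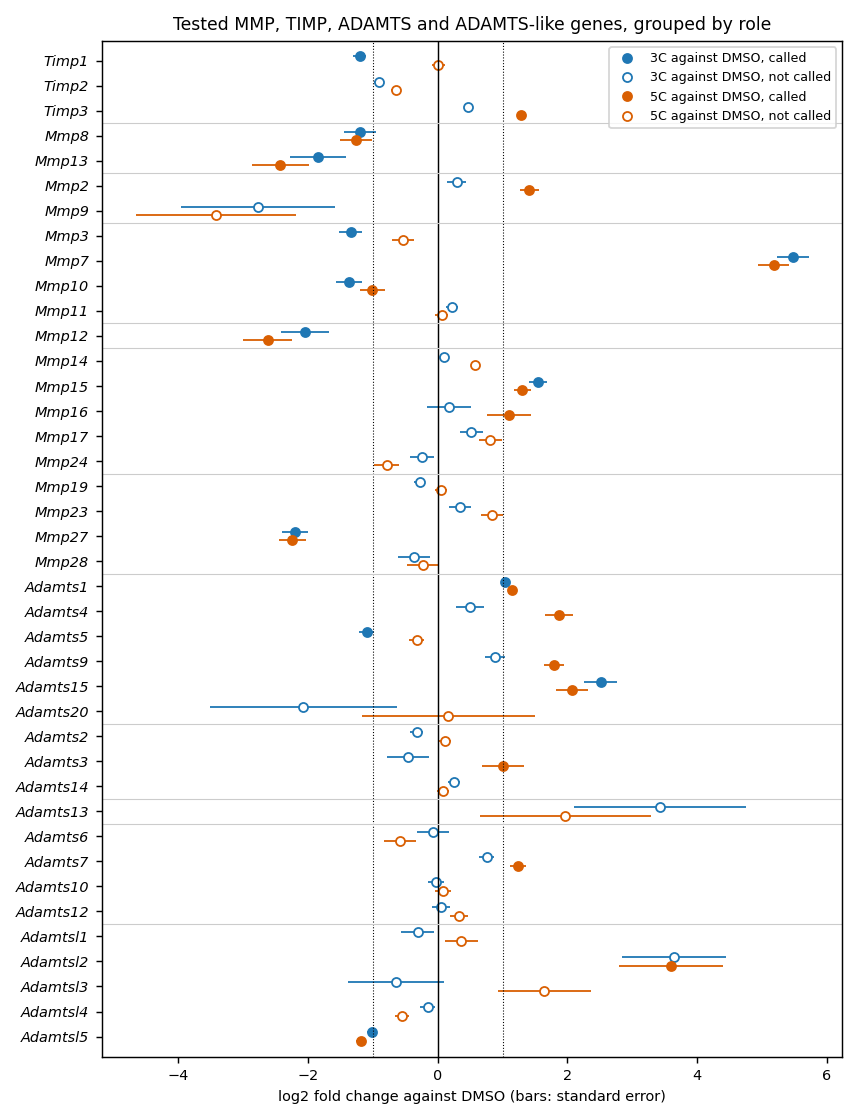
Log2 fold change against DMSO (x axis) of 40 of the 41 tested genes, grouped by role from the TIMPs at the top to the ADAMTS-like genes at the bottom, with the standard error as a bar, in blue for 3C and orange for 5C. Filled points were called and open points were not, dotted lines mark log2 values of -1 and 1, and Timp4 is left out because its counts were 0 in both DMSO libraries. Mmp7 stands alone on the right at 5.18 and 5.48, and the collagenases, Mmp10, Mmp12 and Mmp27 lie on the left for both cocktails.

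A run of 10 MMP genes lies on chromosome 9 over 427.074 kb of the GRCm39 build, in the order Mmp13, Mmp12, Mmp1b, Mmp3, Mmp1a, Mmp10, Mmp8, Mmp27, Mmp20 and Mmp7. Of these 10 genes, 7 were tested, and Mmp7, at one end of the cluster and 17.11 kb from Mmp20, was the only one of the 7 called higher in either cocktail. The other 6 were called lower in 3C, and 5 of them in 5C. The promoters of this cluster are shown because neighbouring genes of one ancestry moved in opposite directions. Each sequence is the 120 bases before the start of the gene's canonical transcript in GENCODE, 5' to 3' on the plus strand of GRCm39, with the AP-1 motif TGANTCA in capitals where it occurred.
Mmp13, chr9:7272394-7272513: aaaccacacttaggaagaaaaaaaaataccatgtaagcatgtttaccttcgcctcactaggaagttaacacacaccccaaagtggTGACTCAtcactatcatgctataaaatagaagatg
Mmp12, chr9:7347254-7347373: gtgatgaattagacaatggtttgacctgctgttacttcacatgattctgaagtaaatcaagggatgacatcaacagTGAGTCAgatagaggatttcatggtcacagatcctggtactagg
Mmp3, chr9:7445702-7445821: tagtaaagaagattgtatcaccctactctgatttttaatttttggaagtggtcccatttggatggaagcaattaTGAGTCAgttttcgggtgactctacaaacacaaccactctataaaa
Mmp10, chr9:7502233-7502352: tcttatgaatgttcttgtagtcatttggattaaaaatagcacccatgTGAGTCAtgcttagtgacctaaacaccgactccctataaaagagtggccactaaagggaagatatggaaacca
Mmp8, chr9:7558337-7558456: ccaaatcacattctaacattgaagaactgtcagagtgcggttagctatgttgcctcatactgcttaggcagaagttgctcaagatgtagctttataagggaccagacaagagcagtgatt
Mmp27, chr9:7571277-7571396: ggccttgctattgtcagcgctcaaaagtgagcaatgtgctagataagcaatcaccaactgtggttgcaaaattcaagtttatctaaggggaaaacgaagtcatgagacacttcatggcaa
Mmp7, chr9:7691971-7692090: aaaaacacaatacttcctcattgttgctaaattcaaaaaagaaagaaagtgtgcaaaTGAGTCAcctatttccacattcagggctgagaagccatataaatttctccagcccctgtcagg

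AP-1 is the family of Fos and Jun transcription factors, known to bind this motif in MMP promoters. In the 250 bases before the start, on either strand, the motif occurred in 8 of the 10 cluster genes, with its first base 35 to 95 bases before the start, and not in Mmp8 or Mmp27. It was present in Mmp7, which rose, and in Mmp13, Mmp12, Mmp3 and Mmp10, which fell in 3C, so that the letters alone did not separate the directions. Outside the cluster it occurred in 4 members, Adamts3, Mmp19, Mmp28 and Mmp9. This gave 12 of all 51 and 9 of the 41 tested, beside 4.97% of the 15182 promoters of tested protein-coding genes searched in the same way. The TATA box TATAAA occurred in 13 of the 51 windows and 9 of the 41 tested, beside 7.98% of the 15182. The cyclic AMP response element TGACGTCA, to which CREB binds, occurred in 0 of the 51, beside 1.84% of the 15182. A match is a description of letters in a window, and binding was not measured.

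Mmp7 encodes matrilysin, an epithelial MMP that lacks the hemopexin domain of most other members. It stood at 1.41 and 2.25 CPM in the DMSO libraries, 71.7 and 94.95 CPM in 3C, and 69.2 and 62.0 CPM in 5C, so all 4 cocktail libraries lay far above both controls. The log2 fold change was 5.48 ± 0.24 (SE) in 3C (adjusted p = 1.27e-05) and 5.18 ± 0.24 in 5C (adjusted p = 9.92e-06). Both 3C libraries lay above both 5C libraries, but the difference of -0.30 for 5C against 3C was not called (95% interval -0.74 to 0.15). Per length, Mmp7 went from 1.54 FPKM in DMSO to rank 4 of the 51 genes in 3C (69.9 ± 14.8 FPKM, SD, n = 2) and rank 6 in 5C (55.4 ± 5.47 FPKM). Mmp7 is also a marker of bile duct epithelium under injury. The 8 cholangiocyte markers, of which 7 were called higher in 3C and 5 in 5C, summed to 182 to 188 CPM in DMSO, 421 to 496 CPM in 3C and 372 to 403 CPM in 5C, with none at 0, and their part in the rise of Mmp7 was not tested.

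The collagenases make the first cut in fibrillar collagen, and both tested ones, Mmp13 and Mmp8, were low and fell in both cocktails. Mmp13, the main interstitial collagenase of rodents, stood at 1.59 and 2.43 CPM in DMSO, 0.498 and 0.645 CPM in 3C, and 0.391 and 0.347 CPM in 5C. Its log2 fold change was -1.84 ± 0.43 in 3C (adjusted p = 0.0131) and -2.43 ± 0.45 in 5C (adjusted p = 0.00321), and the 3C call was lost without DMSO replicate 2 (-1.49, adjusted p = 0.0919), without 3C replicate 1 (-1.67, adjusted p = 0.0980) or without 3C replicate 2 (-2.05, adjusted p = 0.0537). Mmp8, known as neutrophil collagenase, stood at 9.32 and 8.87 CPM in DMSO, 3.56 and 4.53 CPM in 3C, and 3.01 and 4.45 CPM in 5C. Both controls lay above all cocktail libraries, at a log2 fold change of -1.20 ± 0.24 in 3C (adjusted p = 0.00638) and -1.26 ± 0.24 in 5C (adjusted p = 0.00424). Leaving out 3C replicate 1 ended the 3C call (-1.04, adjusted p = 0.0611), and leaving out 5C replicate 1 brought the 5C value to just inside the fold limit (-0.999, adjusted p = 0.0318). The defining markers of neutrophils were at or near 0: the 10 markers summed to at most 1.64 CPM in any library, and 7 of them, S100a9, Ly6g, Ngp, Retnlg, Camp, Mpo and Cxcr2, were at 0 in both DMSO libraries. Mmp1a was at 0 in every library, and Mmp1b had counts in 1 library.

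Mmp12, the elastase of macrophages, stood at 6.39 and 7.75 CPM in DMSO, 2.40 and 1.10 CPM in 3C, and 1.23 and 1.04 CPM in 5C. It fell by 2.05 on the log2 scale in 3C (SE 0.37, adjusted p = 0.0032) and by 2.62 in 5C (SE 0.38, adjusted p = 0.000755). Of the 10 macrophage markers, 8 were called lower in each cocktail, beside 3.62% of all genes in 3C and 4.42% in 5C. Their median log2 fold change was -1.49 in 3C and -2.05 in 5C. Without the fold limit, 1 of the 10 passed the adjusted p as higher in each cocktail. The highest value in the list was 0.86 in 3C and 0.60 in 5C. The part of these markers in the fall of Mmp12 was not tested. Mmp27, a little-studied member, was the most abundant gene of the cluster in DMSO per length (26.3 ± 1.94 FPKM). It stood at 52.6 and 49.9 CPM in DMSO, 10.04 and 12.7 CPM in 3C, and 8.51 and 12.8 CPM in 5C, and fell in both (-2.20 ± 0.21 in 3C, adjusted p = 0.000152, and -2.24 ± 0.21 in 5C, adjusted p = 0.000107). For 5C against 3C the difference was -0.04 (95% interval -0.51 to 0.43).

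The stromelysins Mmp3 and Mmp10 cut proteoglycans and fibronectin and activate other proenzymes. Mmp10 stood at 11.1 and 10.1 CPM in DMSO, 3.97 and 4.41 CPM in 3C, and 5.91 and 4.52 CPM in 5C, with no overlap between the controls and either cocktail. Its log2 fold change was -1.37 ± 0.20 in 3C (adjusted p = 0.000891) and -1.01 ± 0.19 in 5C (adjusted p = 0.0041), where it was at the fold limit and passed below it without DMSO replicate 1 (-0.94) or without 5C replicate 2 (-0.84). Mmp3 stood at 18.9 and 16.3 CPM in DMSO, 8.15 and 6.04 CPM in 3C, and 13.1 and 10.9 CPM in 5C, so 5C lay between the other groups. Against DMSO it was called in 3C (-1.34 ± 0.18, adjusted p = 0.000557) and not in 5C (-0.53 ± 0.17, adjusted p = 0.0478), and the difference of 5C from 3C was 0.81 (95% interval 0.41 to 1.21, adjusted p = 0.0173), which passed the fold limit without 3C replicate 1 (1.04). The transcripts of Mmp3 and Mmp10 share 8.39% and 8.37% of their 50-base words, so a small part of their reads could be assigned to either. Mmp11, or stromelysin 3, lies outside the cluster and was not called in any comparison, at 26.1 to 33.5 CPM.

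**Figure D2:**
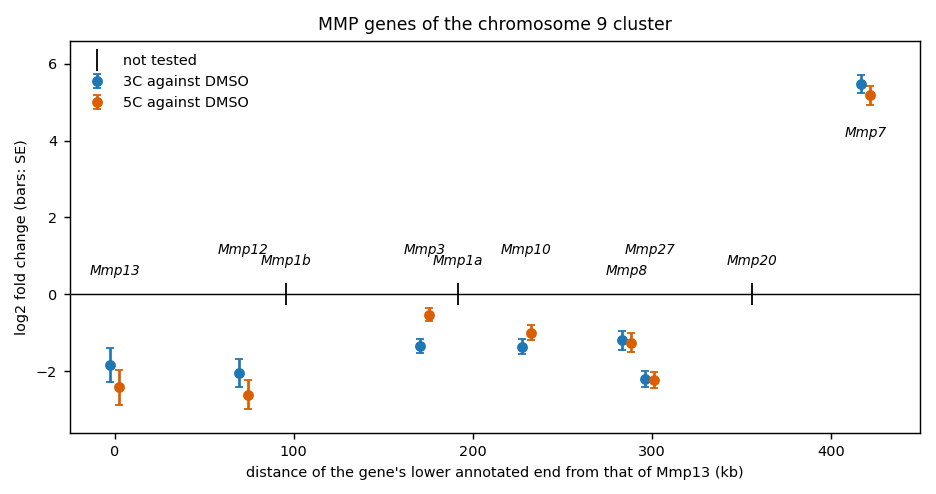
Log2 fold change against DMSO (y axis, bars show the standard error) of the MMP genes of the chromosome 9 cluster, placed by the distance in kb of each gene's lower annotated end from that of Mmp13 (x axis), in blue for 3C and orange for 5C. Black ticks mark the 3 genes that were not tested. Mmp7 at the far end is the gene above 0, and the other 6 tested genes lie below 0 for both cocktails.

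The gelatinases cut denatured collagen and the type IV collagen of basement membranes. Mmp2, the gelatinase of stellate cells and fibroblasts, stood at 66.2 and 53.0 CPM in DMSO, 79.7 and 69.3 CPM in 3C, and 139 and 174 CPM in 5C, where both libraries lay above all others. It rose in 5C against DMSO (1.41 ± 0.15, adjusted p = 0.000314) and against 3C (1.12 ± 0.15, adjusted p = 0.00323), whereas the 3C value was 0.29 ± 0.14 (adjusted p = 0.211). Without 5C replicate 2, the difference from 3C was 0.93, under the fold limit (adjusted p = 0.0106). Of the words of its canonical transcript, 26.6% also occur in the annotated antisense gene Gm45472, which itself had at most 16 counts in any library. Mmp9, the gelatinase of leukocytes, was low, at 1.15 and 0.941 CPM in DMSO, 0.0604 and 0.249 CPM in 3C, and 0 and 0.188 CPM in 5C. Both controls were above all cocktail libraries, but it was not called, at -2.76 ± 1.19 in 3C (adjusted p = 0.135) and -3.42 ± 1.24 in 5C (adjusted p = 0.072). The 3C value was called without either 5C library (adjusted p = 0.0377 and 0.0414), and the 5C value without 5C replicate 2 (adjusted p = 0.0108). The limit for detection is 0.173 to 0.182 CPM per library, and 1 library of each cocktail lay under it.

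Markers of stellate cells and fibroblasts, the known makers of Mmp2, were given the same check. The 10 markers summed to 5389 to 6269 CPM in DMSO, 4789 to 4813 CPM in 3C and 7225 to 7836 CPM in 5C. None was at 0, and 4 were called higher and none lower in 5C against DMSO. Col1a1 and Col3a1 gave most of this sum in each group. Col1a1 averaged 3201, 2088 and 3774 CPM in DMSO, 3C and 5C, and Col3a1 1621, 1078 and 1628 CPM. In 3C, 1 of the 10 was called higher and 1 lower. The median log2 fold change of the 10 was 0.50 in 3C, where the sum was lowest, and 0.43 in 5C. The 7 mesothelial markers summed to 979 to 1193 CPM in DMSO, 1263 to 1409 CPM in 3C and 2308 to 2412 CPM in 5C, with none at 0. Both sums were highest in 5C, as Mmp2 was, and the part of these markers in the rise of Mmp2 was not tested.

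Membrane-type MMPs act at the cell surface. Mmp14 is the main activator of the Mmp2 proenzyme. By the deposited FPKM, though not checked by annotated exon length, it was the most abundant MMP in every group. It had 131 ± 7.38 FPKM in DMSO, 142 ± 6.81 FPKM in 3C and 192 ± 8.39 FPKM in 5C. It stood at 377 and 365 CPM in DMSO, 395 and 419 CPM in 3C, and 558 and 539 CPM in 5C, so the 5C libraries were the highest. The log2 fold change was 0.58 ± 0.07 in 5C (adjusted p = 0.000193), below the fold limit, and 0.10 ± 0.07 in 3C (adjusted p = 0.336). Mmp15 rose in both cocktails, from 11.5 and 11.7 CPM in DMSO to 30.1 and 39.4 CPM in 3C (1.55 ± 0.14, adjusted p = 5e-05) and 28.7 and 27.9 CPM in 5C (1.31 ± 0.14, adjusted p = 0.000104). The ranges of the controls and the cocktails were far apart, and those of the cocktails were close, with a difference of -0.25 for 5C against 3C (95% interval -0.54 to 0.05). Mmp16 was low, at 1.16 and 0.865 CPM in DMSO, 1.21 and 1.13 CPM in 3C, and 2.01 and 2.28 CPM in 5C. Its 5C call (1.10 ± 0.34, adjusted p = 0.0391) was lost when any 1 of the 6 libraries was left out, with log2 fold changes of 0.92 to 1.32 and adjusted p from 0.0569 to 0.1701, and in the fit with a replicate block (1.11, adjusted p = 0.0562).

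The remaining membrane-type members were not called. Mmp24, an MMP of the nervous system, stood at 18.0 and 25.0 CPM in DMSO, 16.5 and 20.7 CPM in 3C, and 11.2 and 13.3 CPM in 5C, where the log2 fold change was -0.79 ± 0.19 (adjusted p = 0.0135). It passed the fold limit only without DMSO replicate 1 (-1.02, adjusted p = 0.00375), and its exons overlap the antisense gene Mmp24os1. Mmp17 stood at 6.52 and 5.10 CPM in DMSO and 9.47 and 10.6 CPM in 5C (0.81 ± 0.18, adjusted p = 0.0083), with 3C between them at 8.61 and 8.38 CPM. Among other members, Mmp23 stood at 6.09 and 7.84 CPM in DMSO, 8.95 and 9.15 CPM in 3C, and 11.6 and 13.0 CPM in 5C (0.84 ± 0.18, adjusted p = 0.00667), and passed the limit without DMSO replicate 2 (1.04). The 5C values of these 3 against DMSO thus lay under the fold limit in the fit of all libraries. Mmp19 was nearly level, at 50.5 to 67.8 CPM in all libraries, and 32.5% of its words are shared with Tmem198b on the opposite strand, which had 864 to 1125 counts. Mmp28, at 3.24 to 4.76 CPM, was not called either.

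Timp2, which besides its inhibitor role takes part in activating Mmp2 at the cell surface, ranked highest of the 51 genes in each group, at 471 ± 16.9 FPKM in DMSO, 252 ± 3.03 FPKM in 3C and 295 ± 17.5 FPKM in 5C. It stood at 1925 and 1920 CPM in DMSO, 1065 and 1026 CPM in 3C, and 1245 and 1179 CPM in 5C, so that both controls lay well above every cocktail library. The log2 fold change was -0.91 ± 0.07 in 3C (adjusted p = 1.79e-05) and -0.65 ± 0.07 in 5C (adjusted p = 9.41e-05), under the fold limit in both. Timp3 binds to the matrix itself and also blocks several ADAMTS and ADAM proteases. Its values of 485 and 455 CPM in DMSO, 680 and 648 CPM in 3C, and 1132 and 1137 CPM in 5C were in the order DMSO, 3C, 5C without overlap. It rose in 5C (1.29 ± 0.07, adjusted p = 2.06e-06), was 0.47 ± 0.07 in 3C (adjusted p = 0.000943, not called), and differed by 0.82 between 5C and 3C (95% interval 0.67 to 0.98, adjusted p = 0.000261), also under the fold limit. Timp3 lies within Syn3 on the opposite strand and shares 36.3% of its words with it, but Syn3 had only 95 to 154 counts in any library.

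Timp1, the TIMP induced in injured and fibrotic liver, separated the cocktails. It stood at 54.6 and 66.02 CPM in DMSO, 26.5 and 27.1 CPM in 3C, and 59.5 and 60.4 CPM in 5C. The 3C libraries were the lowest, and the 5C libraries lay within the range of the controls. It fell by 1.20 on the log2 scale in 3C (SE 0.10, adjusted p = 4.79e-05), whereas in 5C the value was 0.01 ± 0.10 (95% interval -0.22 to 0.24). The difference of 5C from 3C was 1.21 ± 0.10 (adjusted p = 0.000273). Timp4 had no counts in either DMSO library, 1.65 and 2.49 CPM in 3C, and 0.449 and 0.433 CPM in 5C. Against the detection limit it was at least 11.5-fold higher in 3C (adjusted p = 0.000132) and at least 2.45-fold higher in 5C (adjusted p = 0.000595), and it was lower in 5C than in 3C (-2.18 ± 0.48, adjusted p = 0.023). By limma on log2(FPKM + 0.1), which compresses such low values, the 5C value was not called against DMSO (0.77, adjusted p = 0.174), nor was it on log2(FPKM + 1) (0.10, adjusted p = 0.522). The call between the cocktails was lost without either 3C library or either 5C library, at adjusted p from 0.0722 to 0.241. Timp4 lies within Syn2 on the opposite strand and shares 19.0% of its words with it, and Syn2 itself had 0 to 89 counts, beside 0 to 170 of Timp4.

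The make-up of the TIMPs differed between the groups, as did their sum. Summed over the 4 genes, TIMP levels were 638 and 611 FPKM in DMSO, 410 and 403 FPKM in 3C, and 590 and 558 FPKM in 5C. Timp2 made up 75.8% and 75.1% of this sum in DMSO, 62.0% in both 3C libraries, and 52.0% and 50.6% in 5C. Timp3 made up 15.0% and 14.0% in DMSO, 31.2% and 30.9% in 3C, and 37.3% and 38.4% in 5C. Timp1 made up 9.20% and 10.9% in DMSO, 6.75% and 6.91% in 3C, and 10.6% and 10.9% in 5C. Thus 3C had the lower sum, intermediate shares of Timp2 and Timp3, and the lowest share of Timp1. In 5C the sum was near that of DMSO, with more of Timp3 and less of Timp2. The summed MMP level was 251 and 231 FPKM in DMSO, 279 and 313 FPKM in 3C, and 364 and 353 FPKM in 5C, and the ratio of TIMP to MMP RNA was 2.54 and 2.64 in DMSO, 1.47 and 1.29 in 3C, and 1.62 and 1.58 in 5C. These sums are descriptions without a test, and Mmp14 alone made up 46.8% to 54.3% of the MMP sum.

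**Figure D3:**
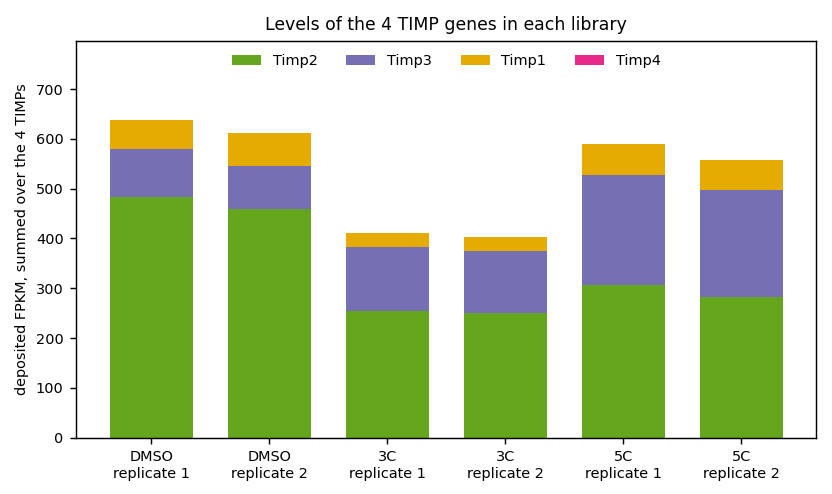
Deposited FPKM (y axis) of Timp2 (green), Timp3 (purple), Timp1 (yellow) and Timp4 (pink, too low to be seen) stacked in each of the 6 libraries (x axis). The bars of DMSO (638 and 611) and 5C (590 and 558) are of similar height and those of 3C (410 and 403) are lower, while the Timp3 part grows from DMSO to 3C to 5C.

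**Figure D4:**
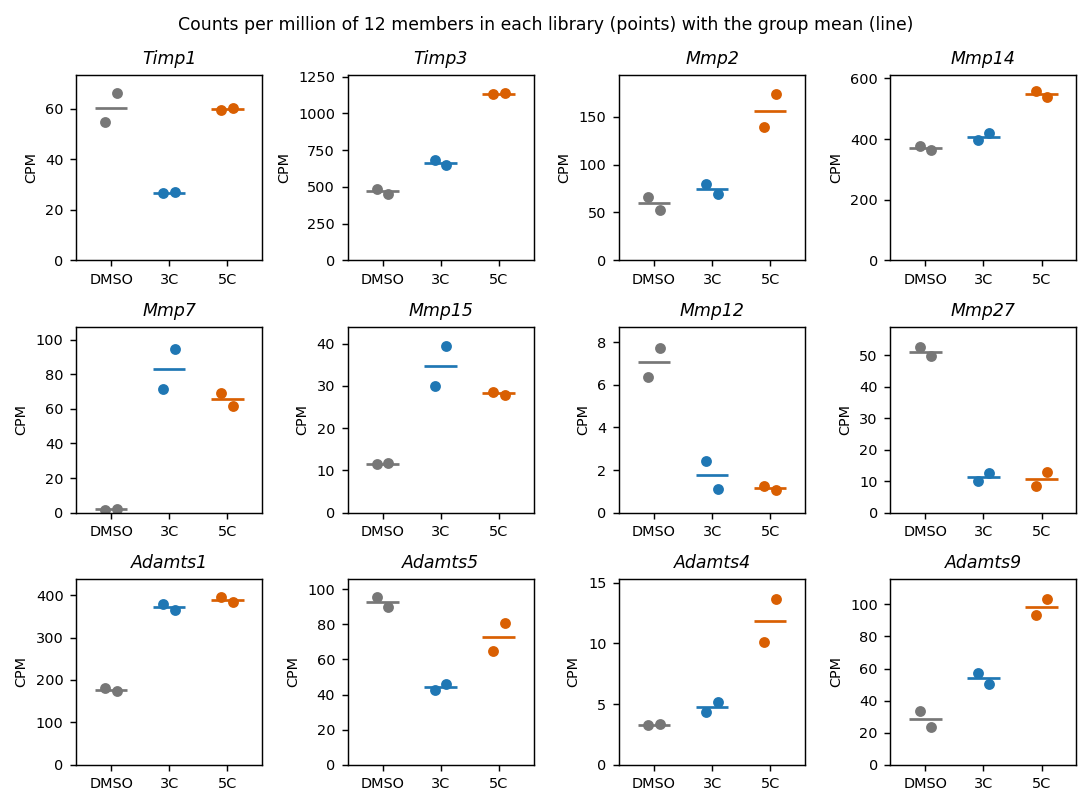
CPM (y axis, from 0, a scale of its own in each panel) of 12 members in the 2 libraries of DMSO, 3C and 5C (points), with the mean of each group as a line. Timp1 and Adamts5 are lowest in 3C, Timp3, Mmp2, Mmp14, Adamts4 and Adamts9 are highest in 5C, Mmp7, Mmp15 and Adamts1 are high in both cocktails, and Mmp12 and Mmp27 are low in both.

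Among the ADAMTS genes, the proteoglycanases cut aggrecan, versican and brevican, and 4 of the 6 tested rose in 5C. Adamts1, the most abundant ADAMTS gene in every group (33.2 ± 1.83 FPKM in DMSO, 68.3 ± 0.966 FPKM in 3C and 72.3 ± 3.14 FPKM in 5C), stood at 180 and 175 CPM in DMSO, 378 and 364 CPM in 3C, and 395 and 384 CPM in 5C. All 4 cocktail libraries were about as high as each other and above the controls, with a log2 fold change of 1.03 ± 0.06 in 3C (adjusted p = 8.18e-06) and 1.15 ± 0.06 in 5C (adjusted p = 2.86e-06). The difference between the cocktails was 0.12 (95% interval -0.03 to 0.26). Adamts5, which encodes a major aggrecanase of mouse cartilage, lies 53.051 kb from Adamts1 on chromosome 16 and went another way. It stood at 95.4 and 90.0 CPM in DMSO, 42.4 and 46.2 CPM in 3C, and 64.8 and 81.0 CPM in 5C. It fell in 3C (-1.10 ± 0.11, adjusted p = 0.000123) and was not called in 5C (-0.33 ± 0.11, adjusted p = 0.056). The difference of 5C from 3C was 0.77 ± 0.11 (adjusted p = 0.00281), under the fold limit.

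Adamts4 and Adamts9 were highest in 5C. Adamts4, an aggrecanase induced by inflammatory signals, stood at 3.25 and 3.37 CPM in DMSO, 4.33 and 5.17 CPM in 3C, and 10.1 and 13.7 CPM in 5C. It rose in 5C against DMSO (1.86 ± 0.22, adjusted p = 0.000214) and against 3C (1.37 ± 0.21, adjusted p = 0.00376), while 3C against DMSO was 0.49 ± 0.21 (adjusted p = 0.141). Adamts9, a versican-cutting protease also needed for secretion and cilia, stood at 33.8 and 23.7 CPM in DMSO, 57.3 and 50.6 CPM in 3C, and 93.3 and 103 CPM in 5C, again in the order DMSO, 3C, 5C without overlap. It rose in 5C (1.80 ± 0.16, adjusted p = 0.000126), and its values in 3C (0.88 ± 0.16, adjusted p = 0.0054) and between the cocktails (0.92 ± 0.15, adjusted p = 0.00868) lay under the fold limit. Without DMSO replicate 1, Adamts9 passed the limit in 3C (1.14), and without 3C replicate 1 it passed between the cocktails (1.01, adjusted p = 0.0412). Adamts15 rose in both cocktails, from 0.968 and 1.40 CPM in DMSO to 7.19 and 6.65 CPM in 3C (2.51 ± 0.26, adjusted p = 0.000117) and 4.88 and 4.94 CPM in 5C (2.07 ± 0.25, adjusted p = 0.00028). The 3C libraries were the highest, but the difference of -0.44 for 5C against 3C was not called (95% interval -0.98 to 0.09). Adamts20 varied by replicate, at 2.26 and 0.728 CPM in DMSO, 0 and 0.718 CPM in 3C, and 1.87 and 1.43 CPM in 5C, and was not called. Without 3C replicate 2, which leaves 3C at 0, Adamts20 was called lower in 3C than in DMSO (adjusted p = 0.00358) and than in 5C (adjusted p = 0.012).

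The procollagen N-proteinases remove the amino-terminal propeptide from fibrillar procollagens. Adamts2, best known for this step in skin, was close to level, at 247 and 233 CPM in DMSO, 200 and 192 CPM in 3C, and 227 and 282 CPM in 5C, and was not called in any comparison. The 3C libraries were nonetheless below all others, with a log2 fold change of -0.32 ± 0.11 against DMSO (adjusted p = 0.0537). Adamts14 stood at 28.3 to 36.2 CPM and was not called. Adamts3, the low member, stood at 2.11 and 1.29 CPM in DMSO, 1.31 and 1.20 CPM in 3C, and 3.32 and 3.44 CPM in 5C. It was called higher in 5C against DMSO (1.01 ± 0.32, adjusted p = 0.0434) and against 3C (1.47 ± 0.32, adjusted p = 0.018). The first call was lost without DMSO replicate 2, either 3C library or either 5C library (0.71 to 1.05, adjusted p from 0.0658 to 0.185) and with a replicate block (1.04, adjusted p = 0.0511), and the second without any 1 of the 4 cocktail libraries (adjusted p from 0.0719 to 0.122).

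Of the other ADAMTS genes, Adamts7, which cuts cartilage oligomeric matrix protein, stood at 21.1 and 17.8 CPM in DMSO, 35.8 and 31.3 CPM in 3C, and 48.6 and 41.9 CPM in 5C. The 3 groups did not overlap. It rose in 5C (1.24 ± 0.12, adjusted p = 6.64e-05) and was under the fold limit in 3C (0.76 ± 0.12, adjusted p = 0.00157). Adamts10 (23.3 to 29.3 CPM), which binds fibrillin microfibrils, Adamts12 (35.4 to 54.2 CPM) and Adamts6 (2.45 to 4.51 CPM) were not called. Adamts13, the protease that cuts von Willebrand factor and is made in stellate cells, was at the edge of detection, with 0 and 7 counts in DMSO, 34 and 47 in 3C, and 6 and 23 in 5C. Against the detection limit this was at least 3.33-fold higher in 3C, without a call (adjusted p = 0.0997), although it was called without DMSO replicate 2 (adjusted p = 0.0244) and by DESeq2 (adjusted p = 0.0425).

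The ADAMTS-like proteins bind the microfibril network. Adamtsl2 stood at 2.25 and 2.09 CPM in DMSO, 23.7 and 31.6 CPM in 3C, and 11.0 and 40.5 CPM in 5C. Every cocktail library lay above both controls, but the 5C replicates differed more from each other than the groups of cocktails did. The log2 fold change was 3.59 ± 0.80 in 5C (adjusted p = 0.0463, called) and 3.64 ± 0.81 in 3C (adjusted p = 0.0507, not called), so that nearly equal values fell on either side of the threshold. The 5C call was lost without either DMSO or either 3C library (adjusted p from 0.117 to 0.252), and the 3C value was called with a replicate block (adjusted p = 0.0362) or without either 5C library. For 5C against 3C the difference was -0.05, and without 5C replicate 2 Adamtsl2 was called lower in 5C (-1.30, adjusted p = 0.0134). Adamtsl5 fell in both, from 103 and 101 CPM in DMSO to 49.7 and 53.0 CPM in 3C (-1.02 ± 0.07, adjusted p = 1.52e-05) and 45.5 and 43.0 CPM in 5C (-1.18 ± 0.07, adjusted p = 4.46e-06), and without 3C replicate 1 the 3C value was -0.97, under the fold limit. Adamtsl4 stood at 43.9 and 38.4 CPM in DMSO, 39.1 and 36.4 CPM in 3C, and 25.7 and 29.7 CPM in 5C (-0.55 ± 0.11 against DMSO, adjusted p = 0.00523, not called). Adamtsl1 (4.46 to 7.98 CPM) and Adamtsl3 (0.238 to 2.46 CPM) were not called, although Adamtsl3 was called higher in 5C than in 3C without either DMSO library (2.28 in both, adjusted p = 0.0454 and 0.0477) and higher in 5C than in DMSO without DMSO replicate 2 (2.78, adjusted p = 0.0473).

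Set against each other, 5C and 3C differ by salidroside and forskolin together, and the effects of these 2 compounds cannot be told apart. Mmp2, Timp1, Adamts3 and Adamts4 were higher in 5C and Timp4 was lower, as given above. With no limit on the fold change, 15 of the 41 genes passed the adjusted p, 13 of them higher in 5C, beside 12.7% of all genes tested. The 13 included all of Timp1, Timp2 and Timp3, and Mmp2 with its activator Mmp14. For Mmp7, Mmp8, Mmp10, Mmp15, Mmp27, Adamts1, Adamts15 and Adamtsl5, the 95% interval for 5C against 3C stayed within 1 log2 unit of 0. The intervals of Mmp12 and Mmp13 reached further, to -1.41 and -1.58. For Mmp9, Adamts13, Adamts20, Adamtsl2 and Adamtsl3 the intervals were wider than 3 units on the log2 scale, so that differences of several fold could not be seen at these counts and this spread.

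**Figure D5:**
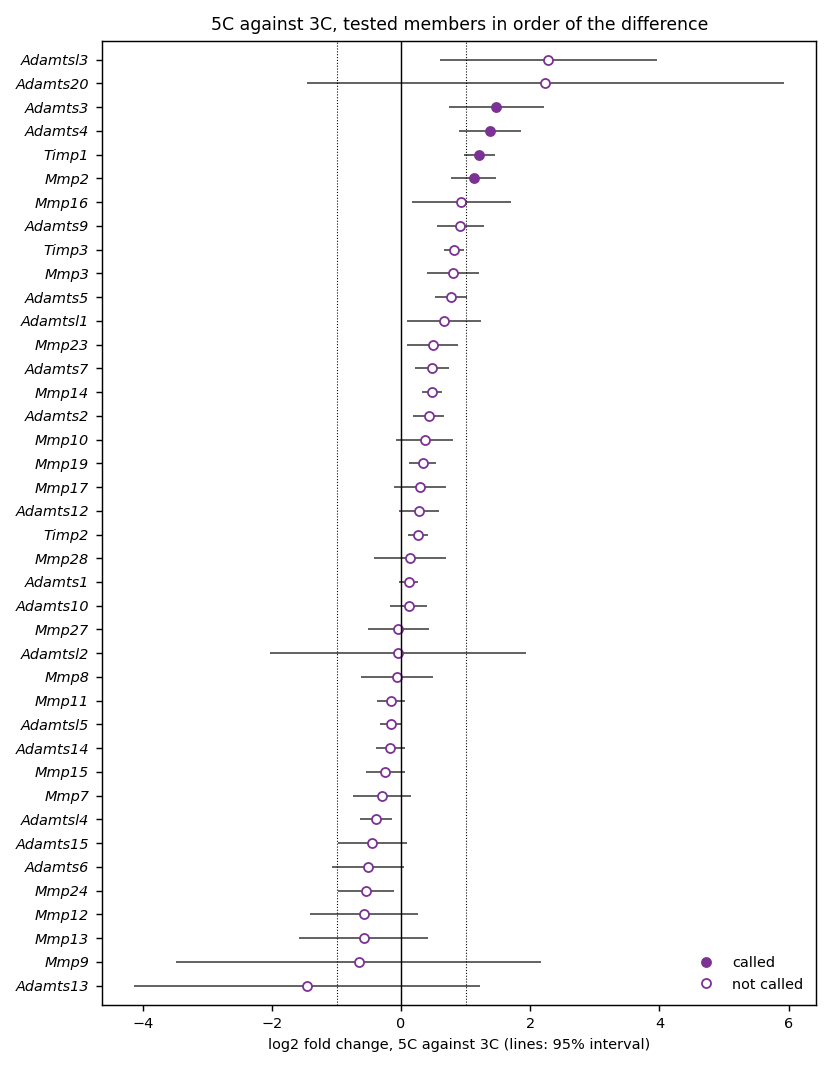
Log2 fold change of 5C against 3C (x axis) with its 95% interval (line) for 40 of the 41 tested genes in order of the difference, with called genes filled and dotted lines at -1 and 1. Timp4 (-2.18, called lower) is left out because it was at 0 in DMSO, as in the plot of fold changes against DMSO. Adamts3, Adamts4, Timp1 and Mmp2 are the filled points, all to the right of the upper dotted line.

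Genes that activate or restrain these proteases were taken from lists chosen with earlier results of these data known. Plasmin, made from the liver protein plasminogen, activates several proenzymes of MMPs. Of the 8 genes of plasminogen activation, 2 were higher and none lower in 5C, beside 11.7% of all genes called in either direction. In 3C, 2 were higher and 1 lower, beside 9.45%. Plg, plasminogen itself, rose from a mean of 3.48 in DMSO to 39.4 CPM in 3C (3.47, adjusted p = 3.59e-05) and 157 CPM in 5C (5.52, adjusted p = 4.19e-06), and 5C was above 3C (2.05, adjusted p = 0.000896). Serpinf2, the plasmin inhibitor antiplasmin, rose from 21.5 CPM to 123 CPM in 3C (2.48) and 142 CPM in 5C (2.74), so that the protease precursor and its inhibitor were both higher. Serpinb2, an inhibitor of plasminogen activators, fell in 3C (-1.78, adjusted p = 0.0344) at 1.16 CPM in DMSO. The activators Plat and Plau were not called against DMSO. Plg and Serpinf2 are liver-made, and the hepatocyte markers, 9 of 9 called higher in 3C and 8 of 9 in 5C, moved with them, with a part that was not tested.

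Of 11 other tested regulators, 6 were higher and none lower in 5C, beside 7.3% of all genes called higher. In 3C, 4 were higher and none lower, beside 5.83% called higher. Pzp, a plasma inhibitor that traps proteases of many classes, rose from 47.2 in DMSO to 401 CPM in 3C (3.05) and 634 CPM in 5C (3.77), and A2m, of the same family, from 1.19 CPM to 2.90 CPM (1.26) and 6.12 CPM (2.38). Pcsk5, a proprotein convertase, rose from 2.29 CPM to 8.38 CPM in 3C (1.84) and 17.0 CPM in 5C (2.92), and was higher in 5C than in 3C (1.075, adjusted p = 0.011). Papln, which encodes papilin, a relative of the ADAMTS-like proteins, rose in 5C against DMSO (1.68) and against 3C (1.49), from 2.08 CPM in DMSO. Spock2, a matrix proteoglycan, and Tfpi2, an inhibitor of serine proteases, completed the 6 in 5C, at 1.35 and 1.11. Bsg, an inducer of MMPs on neighbouring cells, was 402 CPM in DMSO, 610 CPM in 3C and 728 CPM in 5C without a call, and Lrp1, the receptor that clears proteases with their inhibitors, was the most abundant regulator at 1214 to 1588 CPM per group and was not called. Furin and Pcsk6, convertases that activate membrane-type MMPs, were 0.30 and 0.90 in 5C and not called.

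The ADAM sheddases are membrane relatives that release growth factors and receptors. Of 8 tested, 2 were lower and none higher in 5C, beside 11.7% of all genes called in either direction, and 1 was lower and none higher in 3C, beside 9.45%. Adam15 fell from 301 in DMSO to 143 CPM in 3C (-1.11) and 133 CPM in 5C (-1.16). Adam8, a leukocyte sheddase, fell from 606 CPM to 199 CPM in 5C (-1.59), with 325 CPM in 3C (-0.93, not called), beside the macrophage markers given above, whose part was not tested. Adam9 and Adam10 were not called, at -0.43 and -0.40 in 5C.

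Of 13 tested matrix substrates, 2 were higher and 3 lower in 5C, beside 7.3% and 4.42% of all genes. In 3C, 1 was higher and 2 lower, beside 5.83% and 3.62%. For 5C against 3C, 3 were higher and 1 lower, beside 2.16% and 0.852%. Eln, elastin, rose from 3.29 in DMSO to 14.4 CPM in 3C (2.10) and 37.0 CPM in 5C (3.51), and Thbs1 rose in 5C (1.29). Vcan, the versican cut by Adamts1, Adamts4 and Adamts9, was 32.5 CPM in DMSO and 31.3 CPM in 3C, and fell to 10.6 CPM in 5C (-1.59, adjusted p = 0.00121, and -1.50 against 3C). Bcan, the brevican core protein, fell in 3C (-3.41) and 5C (-1.60) from 4.26 CPM, and Vwf, the substrate of Adamts13, from 31.7 CPM to 8.38 CPM in 3C (-1.95) and 5.82 CPM in 5C (-2.43). Vwf marks endothelium, and the 10 endothelial markers, with Clec4g at 0 in DMSO and in 5C, summed to 330 to 340 CPM in DMSO. Their sum was 99.6 to 137 CPM in 3C and 174 to 265 CPM in 5C. Of the 9 tested, 5 were called higher in 3C and 7 in 5C, with a median log2 fold change of 2.11 and 3.15. Only Lyve1 was called lower, in each cocktail, so most of the list moved opposite to Vwf and to the sum. The part of these markers in the fall of Vwf was not tested. The fibrillar collagens Col1a1 and Col3a1 were not called in any comparison. Under the fold limit, both were lower in 3C than in DMSO (-0.65, adjusted p = 0.000793, and -0.62, adjusted p = 0.00341). They were higher in 5C than in 3C (0.91, adjusted p = 0.000562, and 0.65, adjusted p = 0.0061), and at 0.26 and 0.03 in 5C against DMSO. Col1a2 was called higher in 5C than in 3C (1.02, adjusted p = 0.000353), at 2597 CPM in DMSO, 2328 CPM in 3C and 4544 CPM in 5C. Fn1, fibronectin, the most abundant of the substrates, was not called at 4184 to 5046 CPM.

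The 10 members that were not tested had at most 14 counts in any library. Adamts17, Adamts18, Mmp1a and Mmp21 were at 0 in all 6 libraries. Adamts8, Adamts16, Adamts19, Mmp1b, Mmp20, the enamel protease, and Mmp25, a leukocyte membrane-type MMP, had low counts in some libraries and 0 in the others. At this depth a level under 0.173 to 0.182 CPM could not be told from 0.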

How the data were processed

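RNA was sequenced as paired 150-base reads from 6 libraries, 2 each of DMSO, 3C and 5C dHeps on day 16. Per the labels, reads were mapped to GRCm39, and the submitters' processing notes name featureCounts, Subread and DESeq2. The aligner, annotation release and strand setting are not given in the sources used here. The deposited table holds estimated counts for 52323 genes, as unscaled whole numbers. Values of 4 occurred in excess (4816 entries, against 3121 entries of 3 and 2303 of 5), so how many units a fragment gave is unknown. The detection limit was set at 12 units, which is 3 fragments if each gave 4 units, or 0.173 to 0.182 CPM. The deposited FPKM were scaled by the authors for gene length and library total, and the table held all 51 genes.

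All genes kept by filterByExpr were fitted over the 6 libraries with edgeR 4.0.16 (R 4.3.3), using TMM normalization, robust dispersions and its quasi-likelihood F test. The model had a coefficient per group and 3 residual degrees of freedom, and the common coefficient of biological variation came to 18.4%. Adjusted p-values are Benjamini-Hochberg values over 19135 genes, the standard error is that implied by the F statistic, and intervals are 95%. Calls needed an adjusted p under 0.05 with a log2 fold change beyond 1 in size. Folds against groups at or under the detection limit were computed against that limit, which covers counting error only. The fit was checked on simulated data.

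The members, the role groups and the lists of regulators, substrates and markers were chosen with earlier results of these data known. Named members were those called in any comparison and those with a group mean of at least 10 CPM, and the rest are given by range. Of each list of other genes, those called and up to 4 of the most abundant are named. The hepatocyte list held 10 genes, of which 9 were found by symbol. Positions, promoters and overlaps came from GENCODE M39 on GRCm39. Genes sharing at least 10% of the 50-base words of their canonical transcript with another gene are uncertain. These were 8 members, namely Adamts8, Mmp1b, Mmp2, Mmp19, Mmp24, Mmp28, Timp3 and Timp4. Alternatives covered normalization, filters, thresholds, DESeq2 1.42.0, limma 3.58.1 on log2(FPKM + 1) and log2(FPKM + 0.1), division of the counts by 4, the 4 libraries compared alone, a replicate block and leaving out each library.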

Additional observations from a re-analysis of the deposited data

How the results depend on the processing

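With 2 libraries per group, single calls near the limits are the weak point. Tested against a log2 fold change of 1 in place of 0, the number of members called was 10 for 5C against DMSO, 5 for 3C against DMSO and 0 for 5C against 3C, and with limma on log2(FPKM + 1), which shrinks low genes, it was 11, 8 and 2. Beside the 0, edgeR without a fold limit called 15 for 5C against 3C and DESeq2 called 6 with it. Leaving out 1 library gave 16 to 18 members for 5C against DMSO, 11 to 16 for 3C against DMSO and 3 to 6 for 5C against 3C. The other settings stayed within 1.5 times of 19, 14 and 5. The next counts leave out the test against a log2 fold change of 1 and the run without a fold limit. Of the calls, 10 of 19, 7 of 14 and 1 of 5 were kept in every other alternative that tested the gene. No called log2 fold change reversed its sign in these runs. Whether libraries with the same replicate number belong together is not stated. Their deviations from the group means correlated at -0.03, 0.00 and 0.02 over all genes tested. These values show no strong shared shift, but they cannot exclude pairing. With a replicate block 17, 15 and 5 members were called. Mmp9 was called lower in 5C with the counts divided by 4 (-3.47, adjusted p = 0.00816) and with DESeq2 (-3.44, adjusted p = 0.0243). By counts per annotated exon length, Timp3 made up 10.7% to 11.5% of the TIMP level in DMSO, 24.6% to 24.9% in 3C and 31.0% to 32.1% in 5C, in the same order as by FPKM, and Mmp14 31.0% to 38.2% of the MMP level. Genes at or near 0.173 to 0.182 CPM could not be judged at this depth.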
